A study of Mus musculus with 6 samples.

Results

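The 80 genes described here encode the proteins of the cytosolic ribosome, 32 of the small subunit (Rps genes and Rpsa) and 48 of the large subunit (Rpl genes and the stalk genes Rplp0, Rplp1 and Rplp2). They were found by gene symbol among the 28787 gene names on the array, and S6 kinases, whose symbols also begin with Rps, were left out. Together they had 134 probes in 143 spots. The brightest probe in the sample channel stood for each gene, with 40 genes having a single probe and 40 more than 1. All 80 were well above background on 6 of 6 arrays, and no spot of a member was saturated.

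The ribosome joins a small subunit, which reads the messenger RNA, to a large subunit, which forms the peptide bond. Each ribosomal protein is needed in about equal number, and the genes are strongly expressed in most cells. Their messenger RNAs begin with a run of pyrimidines (the 5′ terminal oligopyrimidine, or TOP, motif) through which mTOR signalling sets their translation. Myc raises transcription of these genes and of the nucleolar factors that process ribosomal RNA. Changes in ribosome production and in translation rate are known from studies of several kinds of stem cell.

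RNA came from the mammary glands of virgin C57/B6 mice, heterozygous for a ΔNp63 knockout (het) or wild type (WT). ΔNp63 is the class of p63 isoforms that lacks the N-terminal transactivation domain and is made in basal epithelial cells. From each genotype there were 3 samples: P4, sorted as CD24+CD29hi and enriched for mammary stem cells (MaSC), P5, sorted as CD24+CD29lo and enriched for luminal progenitors, and MEC, the mammary epithelial cells in total. Each of the 6 groups had 1 array, and the number of mice behind it is not given in the labels. The groups were het P4, WT P4, het P5, WT P5, het MEC and WT MEC. On every array the sample was labelled with Cy5 and a Universal Mouse Reference RNA, made from 11 cell lines, with Cy3. A level below is log2 of the sample over that reference after loess within each array. Loess fits the ratio as a curve of brightness. A level of 0 thus means the ratio typical of spots of like brightness on that array, and not an equal share in both RNAs. Above or below the reference means a level above or below 0 on this scale.

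The sorted arrays lay on slide 1, with het P4 and het P5 at positions 3 and 4 and WT P4 and WT P5 at positions 1 and 2. On slide 2, het MEC was at position 2 and WT MEC at position 1. Genotype and position cannot be told apart, nor can sorting and slide. Trp63, the gene that encodes p63, had levels of 5.29 in het P4, 4.41 in WT P4, 0.89 in het P5, 0.46 in WT P5, 2.65 in het MEC and 2.78 in WT MEC. Whether its probe lies in the deleted sequence is not given, so it does not check the genotype labels. The summed Cy5 signal of 4 basal markers (Krt5, Krt14, Acta2 and Trp63) was 378492 and 396836 in P4, 9947 and 6696 in P5, and 62575 and 83504 in MEC, het before WT. That of 4 luminal markers (Krt8, Krt18, Elf5 and Kit) was 109698 and 121164 in P4, 613530 and 610282 in P5, and 475059 and 323399 in MEC. P4 was thus the basal and P5 the luminal sample. The summed signal of 4 fibroblast markers (Dcn, Col1a1, Col3a1 and Pdgfra) was 3732 to 14794 in the sorted samples, against 92762 and 206293 in MEC. In RNA from mixed cells, fewer cells of a type and less RNA per cell cannot be told apart.

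After loess, the median level of the ribosomal protein genes was close to 0 on every array. Most of these genes are bright, with a family median Cy5 signal of 23231 to 139725, against 112 to 182 over all probes. Loess draws spots of like brightness towards 0, so this does not show that their share matched the reference RNA. The median level of the 80 genes was 0.10 in het P4, -0.10 in WT P4, 0.16 in het P5, 0.14 in WT P5, 0.07 in het MEC and -0.02 in WT MEC. No array's median was far from 0, and the quartiles of the genes were -0.38 and 0.59 in het P4 and -0.46 and 0.50 in WT P4. Across the 6 arrays 26 genes were above the reference every time, 19 were below it every time and 35 lay on both sides. The SD of a gene over the 6 arrays had a median of 0.22, against 0.25 over all 25764 genes tested, and 53 of the 80 were below that all-gene median. Levels of the 80 genes on 2 arrays correlated with r between 0.66 and 0.91, as a description across genes that share the reference channel. The 3 het and WT pairs of a population had r of 0.91 in P4, 0.91 in P5 and 0.89 in MEC.

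**Figure D1:**
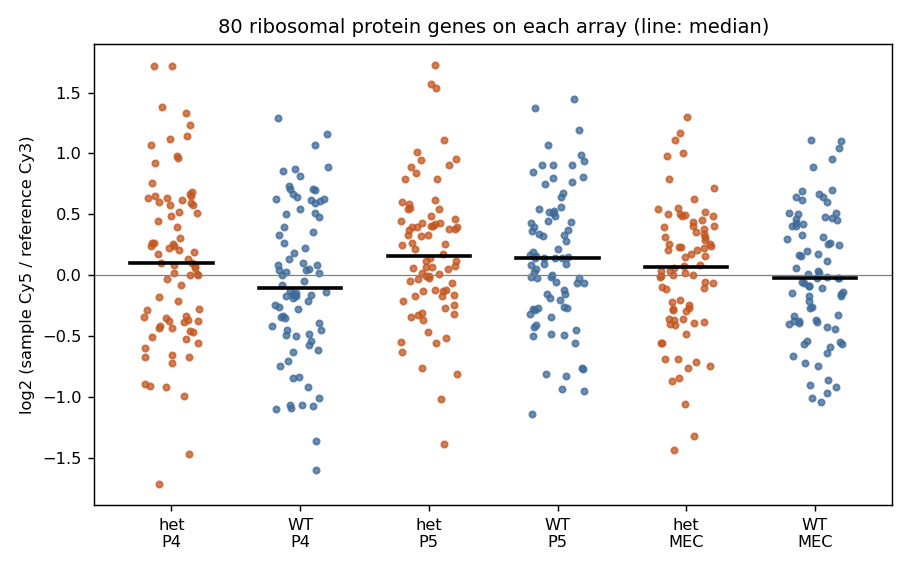
Level of each of the 80 ribosomal protein genes, as log2 of sample Cy5 over reference Cy3, on each array. Points are genes (orange het, blue WT) and the black line is the median, which lies between -0.10 (WT P4) and 0.16 (het P5).

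Some members lay on 1 side of the reference on every array. Rplp1, an acidic protein of the stalk that recruits elongation factors, had levels of 1.72 in het P4, 1.29 in WT P4, 1.73 in het P5, 1.45 in WT P5, 0.98 in het MEC and 1.11 in WT MEC. It was the highest of the 80 on 5 of these arrays, all but het MEC, where Rpl37a led with 1.30. Rplp2, its stalk partner, had 1.33 in het P4, 0.86 in WT P4, 1.01 in het P5, 0.99 in WT P5, 1.01 in het MEC and 1.05 in WT MEC. Both stalk genes were thus above the reference throughout. Rpl38, a large-subunit protein that in mice is needed for the translation of some Hox messenger RNAs, was among the steadiest, between 0.95 and 1.19 on the 6 arrays, with an SD of 0.08. Rpl30 was as steady below the reference, between -0.62 and -0.45, with an SD of 0.06. Rps27a, which is made as a fusion with ubiquitin, lay between 0.26 and 0.54.

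At the low end, Rps26, a small-subunit protein near the exit of the messenger RNA, was the lowest member in both P4 samples. Rpsa, a small-subunit protein also known as the laminin receptor, had levels of -0.46 in het P4, -1.01 in WT P4, -0.63 in het P5, -1.14 in WT P5, -1.43 in het MEC and -1.01 in WT MEC. Het was higher than WT in P4 and P5 and lower in MEC. The small subunit had a median level of 0.23 in het P4, 0.06 in WT P4, 0.29 in het P5, 0.24 in WT P5, 0.25 in het MEC and 0.16 in WT MEC. The large subunit had 0.05, -0.16, 0.13, 0.04, 0.00 and -0.11 in the same order. The small subunit's median was the higher one on each of the 6 arrays.

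The comparison of P4 with P5 asks whether the basal, stem-cell-enriched sample carries more or less ribosomal protein messenger RNA than the luminal-progenitor-enriched one. Most of the 80 genes were a little lower in P4, 60 of them with a negative and 20 with a positive difference. The median difference (P4 minus P5) was -0.14, against 0.04 over all genes. None of the 80 differed by 2-fold or more, and 38 (47.5%) were lower in both P4 arrays than in both P5 arrays, against 22.4% of all genes. In the other direction 12 (15%) were higher in both P4 arrays, against 23.6% of all genes. One gene, Rps26, passed the test, at an adjusted p below 0.05 in the limma fit with Benjamini-Hochberg adjustment over all genes, where 10.3% of all genes passed. At an unadjusted p below 0.05 there were 23 of the 80, against 26.5% of all genes. Both subunits had a negative median, -0.11 for the small and -0.15 for the large. Fibroblast and leukocyte markers were higher in P4. The 4 fibroblast markers had a median difference of 1.27 (4 of 4 positive, 1 passed). The 4 leukocyte markers had one of 0.91 (4 of 4 positive, 0 passed). It was 0.11 for the 4 adipocyte markers (3 of 4 positive, 0 passed) and 0.03 for the 4 endothelial markers (2 of 4 positive, 0 passed). The summed adipocyte marker signal was 30277 and 16540 in P4, against 15808 and 5616 in P5, het before WT. The part of these cells in the family's difference was not tested.

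**Figure D2:**
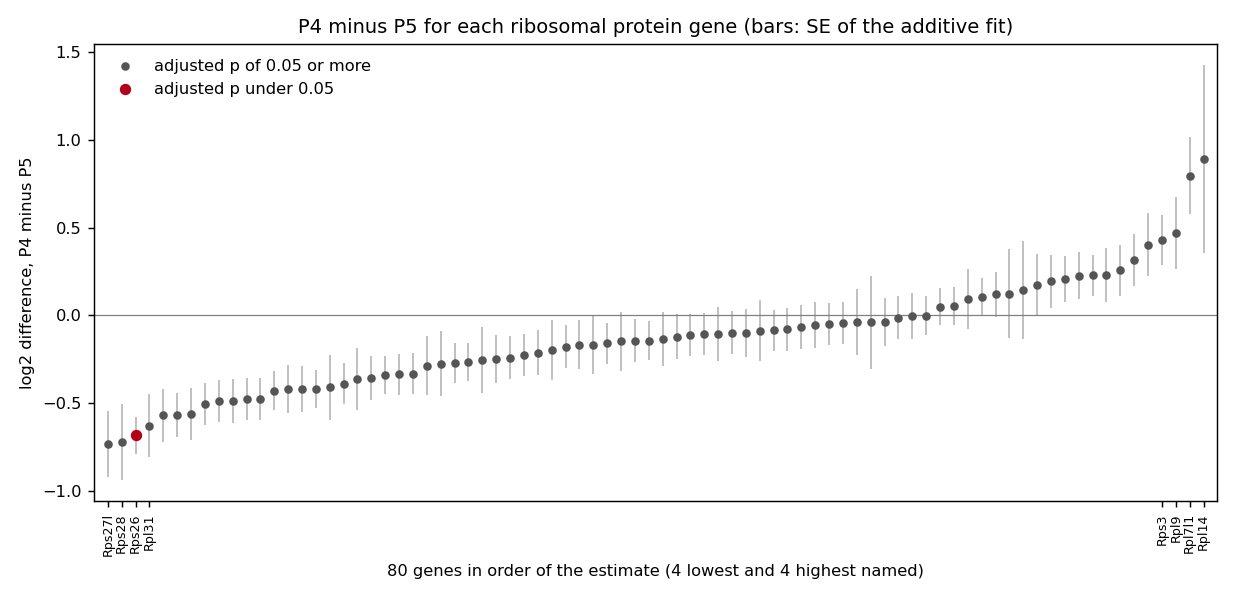
Difference P4 minus P5 (log2) of each of the 80 genes in order, with the standard error of the additive limma fit and names for the 4 lowest and 4 highest. Rps26, in red, is the one gene with an adjusted p under 0.05, and 60 of 80 points lie below 0.

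Rps26 had levels of -1.72 in het P4 and -1.60 in WT P4, against -1.01 in het P5 and -0.94 in WT P5, with -1.06 in het MEC and -0.97 in WT MEC. Both P4 arrays were below the other 4, and het and WT were close in every population. It fell in P4 by 0.68 relative to P5 (SE 0.11, limma adjusted p = 0.0313, n = 2 arrays each, lower in 2 of 2 genotypes). It also fell by 0.64 relative to MEC (SE 0.11, limma adjusted p = 0.0453). The gene has a single probe, of 60 bases, whose ends lie 785 bases apart at chr10:128127075-128127859 of mm7, the build in the array's annotation, so it spans an intron. The probe and the RefSeq promoter of Rps26 (GRCm38.p6, minus strand, chr10:128626487-128626606, from 100 bases before the start to 20 after it) are shown because this gene alone passed against both P5 and MEC. Capitals mark CTTTC, the core of a pyrimidine-rich start, on the sense strand.
Rps26 probe: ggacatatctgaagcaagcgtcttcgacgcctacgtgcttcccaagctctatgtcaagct
Rps26 promoter: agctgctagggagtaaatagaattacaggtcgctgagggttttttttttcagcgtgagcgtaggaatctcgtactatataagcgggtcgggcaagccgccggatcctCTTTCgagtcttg

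Other members at the low end of P4 against P5 did not pass. Rps27l, a paralog of Rps27 that p53 induces in human cells, had levels of -0.67 in het P4 and -1.06 in WT P4, against -0.21 in het P5 and -0.07 in WT P5. Both P4 values were below both P5 values, with a difference of -0.73 (SE 0.19, limma adjusted p = 0.0898). Rps28 had -0.37 in het P4 and -0.75 in WT P4, against -0.04 in het P5 and 0.36 in WT P5, a difference of -0.72 (SE 0.22, limma adjusted p = 0.122). Rpl31 had -0.99 in het P4 and -1.09 in WT P4, against -0.32 in het P5 and -0.50 in WT P5, a difference of -0.63 (SE 0.18, limma adjusted p = 0.11). In none of the 3 did the P4 and P5 arrays overlap.

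At the high end, Rpl14, a large-subunit protein, had levels of 1.23 in het P4 and -0.39 in WT P4, against -0.13 in het P5 and -0.81 in WT P5. The populations overlapped, and the difference of 0.89 had an SE of 0.54 (limma adjusted p = 0.405). Rpl7l1, a paralog of Rpl7 with a role in early ribosome assembly, had 0.98 in het P4 and 0.71 in WT P4, against 0.25 in het P5 and -0.16 in WT P5. Its P4 arrays were both higher, with a difference of 0.80 (SE 0.22, limma adjusted p = 0.0997), but its dimmer probe gave 0.03. Rpl9 differed by 0.47 (limma adjusted p = 0.247) and Rps3, which also has a role in DNA repair, by 0.43 (limma adjusted p = 0.149). The dimmer probe of Rps3 gave -0.05.

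In a fit of the 4 sorted arrays only, all from slide 1, 7 of the 80 genes (8.75%) passed, where 18.3% of all genes did. Rps27l, Rps26, Rpl31, Rpl39, Rpl11 and Rpl27a were lower in P4, with differences between -0.73 and -0.56. Rpl7l1 was higher, by 0.80. The estimates are those of the fit on 6 arrays, and the adjusted p-values lay between 0.0168 and 0.0491. Leaving out any 1 of the 4 sorted arrays leaves P4 or P5 with 1 array, so these calls could not be checked that way.

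Rpl5, Rpl11 and Rpl23 are among the members whose proteins bind Mdm2, the ligase that degrades p53, when ribosome assembly is disturbed. Rpl11 had levels of 1.07 in het P4 and 0.70 in WT P4, against 1.53 in het P5 and 1.37 in WT P5, with 0.72 in het MEC and 0.64 in WT MEC. On this brighter probe both P5 arrays were above the other 4. Its difference was -0.57 for P4 against P5 (SE 0.13, limma adjusted p = 0.0649) and 0.77 for P5 against MEC (limma adjusted p = 0.0544). Its dimmer probe gave -0.08 and 1.44 for the same comparisons, and on it het P4 (1.46) was above het P5 (0.88). Rpl5 had 0.22 in het P4, 0.05 in WT P4, 0.33 in het P5 and 0.16 in WT P5, against -0.29 in het MEC and -0.66 in WT MEC. All 4 sorted arrays were above both MEC arrays, with differences of 0.61 for P4 (limma adjusted p = 0.058) and 0.73 for P5 (limma adjusted p = 0.0535). Rpl23 went another way, with -0.38 in het P4, -0.50 in WT P4, -0.01 in het P5 and -0.01 in WT P5, against 0.16 in het MEC and 0.17 in WT MEC. Its P4 values were below P5 and its P5 values below MEC, with a difference of -0.60 for P4 against MEC (limma adjusted p = 0.0537). None of the 3 genes passed the threshold in any comparison of the fit on 6 arrays, and with median centring the P5 minus MEC differences of Rpl11 and Rpl5 were -0.67 and -0.72.

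Rplp0, the base of the stalk and a common reference gene in quantitative PCR, was measured with a probe printed 10 times per array, of which 8 to 10 spots were used. Its level was -0.72 in het P4, -0.84 in WT P4, -0.17 in het P5, -0.56 in WT P5, -0.71 in het MEC and -0.75 in WT MEC. The SD between its spots was 0.02 to 0.05 on an array, so the higher het P5 value exceeds the printing error. The array also holds 2 probes under the older name Arbp, which the symbol rule does not take. The first of these gave 0.03 in het P4, -0.26 in WT P4, 0.07 in het P5, -0.05 in WT P5, -0.12 in het MEC and -0.22 in WT MEC. On it, as on the Rplp0 probe, het P5 was the highest array and het was above WT in each population. The annotation places the Rplp0 probe on chromosome 8 of mm7, and it did not match a RefSeq accession. Whether it measures Rplp0 itself or a copy elsewhere in the genome was not tested.

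Some members are paralogs named after another member. Rps27 had levels of 0.92 in het P4, 0.73 in WT P4, 0.84 in het P5, 0.94 in WT P5, 1.16 in het MEC and 1.10 in WT MEC, and its P4 minus P5 difference was -0.06, against -0.73 for Rps27l. Rpl22 had a P4 minus P5 difference of -0.47 (limma adjusted p = 0.0851), and Rpl22l1, which can take its place in the ribosome, one of -0.14. Rpl7 differed by 0.21 and Rpl7l1 by 0.80. Rpl3l, the paralog of Rpl3 that belongs to striated muscle, had a mean Cy5 signal of 73.4 units and levels between -0.01 and 0.08, the smallest SD of the family (0.03). Its signal was below the median over all probes on every array (112 to 182). The offset of 50 used in background correction draws ratios of so dim a spot towards 0, so the small SD does not show steady expression. The best ungapped match between the probes of a pair was 20 to 23 of 60 bases, so the pairs are measured by different sequences.

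Against MEC, P4 as a family did not stand apart: 40 genes had a positive and 40 a negative difference, with a median of -0.01, against 0.04 over all genes. Single genes moved both ways. Rpl35a and Rps14 rose and Rps26 fell, 3 of 80, where 6.69% of all genes passed. In P5 against MEC, 53 differences were positive, the median was 0.12 (all genes 0.03), and Rpl35a alone passed, where 4.03% of all genes did. Of the 80, 16 (20%) were higher in all 4 sorted arrays than in both MEC arrays, against 10.4% of all genes, and 8 (10%) were lower, against 9.44%. P4 and P5 are set against the same MEC arrays here. The sorted samples also had less fibroblast, endothelial and adipocyte marker signal than MEC. The summed signal of 4 leukocyte markers was 6999 in het P4, 2570 in WT P4, 2334 in het P5 and 1339 in WT P5, against 3222 in het MEC and 4699 in WT MEC. The part of these cells in the differences was not tested.

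Rpl35a, a large-subunit protein mutated in some families with Diamond-Blackfan anaemia, had levels of 0.76 in het P4, 0.89 in WT P4, 0.90 in het P5 and 0.77 in WT P5, against 0.04 in het MEC and -0.02 in WT MEC. The sorted arrays lay close together and well above both MEC arrays. The gene rose by 0.82 in P4 (SE 0.12, limma adjusted p = 0.0409) and by 0.83 in P5 (SE 0.12, limma adjusted p = 0.0469) relative to MEC, while P4 and P5 differed by -0.01. Its next brightest probe gave 0.75 and 0.92 for the same comparisons (limma adjusted p = 0.069 and 0.0602). With median centring in place of loess the brightest probe gave -0.69 and -0.59. The dimmest of its 3 probes gave 0.06 and -0.03. The brightest probe lies at chr16:32732018-32733213 of mm7 and spans an intron. The promoter shown is at the middle one of 3 RefSeq starts (GRCm38.p6, plus strand, chr16:33056382-33056501). Capitals mark CTTTC, well before the start and again near it. Just after the one near the start they mark CCATCTT, the reverse complement of AAGATGG, a YY1-type motif.
Rpl35a probe: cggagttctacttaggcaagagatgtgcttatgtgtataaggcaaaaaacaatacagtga
Rpl35a promoter: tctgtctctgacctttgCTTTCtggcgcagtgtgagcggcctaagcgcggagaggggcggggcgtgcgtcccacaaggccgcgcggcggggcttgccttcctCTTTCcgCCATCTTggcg

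Rps14, a small-subunit protein linked to the anaemia of the human 5q deletion syndrome, had levels of 1.71 in het P4, 1.16 in WT P4, 1.57 in het P5 and 0.85 in WT P5, against 0.79 in het MEC and 0.43 in WT MEC. All sorted arrays were above both MEC arrays, and het was above WT in all 3 populations. It rose by 0.82 in P4 relative to MEC (SE 0.14, limma adjusted p = 0.0452), and the P5 minus MEC difference was 0.60 (limma adjusted p = 0.095). With median centring in place of loess its P4 minus MEC difference was -0.78.

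Of the members lower in the sorted samples, Rps29 had levels of 0.26 in het P4, -0.14 in WT P4, -0.34 in het P5 and -0.34 in WT P5, against 0.49 in het MEC and 0.70 in WT MEC. No sorted array reached the MEC arrays, and the P5 minus MEC difference was -0.94 (SE 0.18, limma adjusted p = 0.0714). Rps15 had -1.47 in het P4, -1.36 in WT P4, -1.38 in het P5 and -0.95 in WT P5, against -0.69 in het MEC and -0.59 in WT MEC, with a P4 minus MEC difference of -0.78 (limma adjusted p = 0.0507). Rpl27a had a P4 minus MEC difference of -0.75, and its dimmer probe gave 0.50. Rps28 had a P4 minus MEC difference of -0.89 but was not lower in every sorted array, with 0.36 in WT P5 against 0.26 in WT MEC. Rps6, the substrate of S6 kinase, had a P5 minus MEC difference of -0.27 (limma adjusted p = 0.428), and all its sorted values were below MEC.

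**Figure D3:**
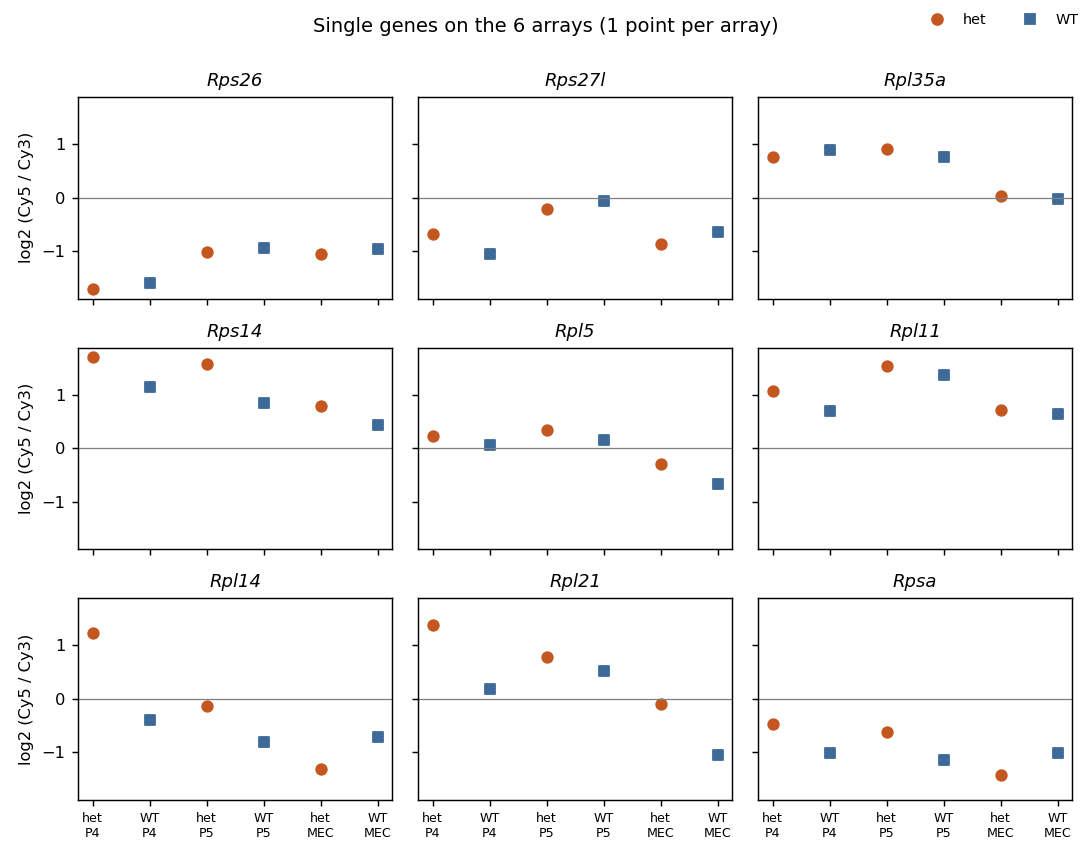
Levels (log2 of Cy5 over Cy3) of 9 members on the 6 arrays, 1 point per array, with orange circles for het and blue squares for WT. Rps26 is lowest in both P4 arrays, Rpl35a is near 0 only in MEC, and Rpl14 and Rpl21 are highest in het P4.

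The genotype comparison asks what loss of a ΔNp63 allele does in each population. Over the 3 populations together 0 of the 80 genes passed, nor did any other gene (0% of all genes) in this limma fit, whose genotype difference rests on 3 arrays against 3. At an unadjusted p below 0.05 there were 2 of the 80, against 21.1% of all genes. The median het minus WT difference was 0.05, against 0.06 over all genes, and 59 differences were positive. Het was above WT in all 3 populations for 9 genes (11.25%), among them Rpl5, Rpl10a, Rpl11, Rpl21, Rpl23a, Rplp0, Rps14 and Rps27a. This share among all genes was 33%. Het was below WT in all 3 for 5 genes (6.25%), Rpl35, Rps9, Rps15, Rps25 and Rps26, against 15% of all genes.

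The largest het minus WT estimates were 0.80 for Rpl21 (SE 0.21, limma adjusted p = 0.204), 0.57 for Rpl14 (SE 0.44), 0.55 for Rps14 (SE 0.11, limma adjusted p = 0.204) and 0.42 for Rpl29 (SE 0.22). The dimmer probes of Rpl29 gave 0.12, 0.01 and -0.06. The lowest were -0.21 for Rps15, -0.15 for Rps25, -0.15 for Rps9 and -0.14 for Rpl27, with limma adjusted p-values of 0.339 to 0.646. None was past the threshold.

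Within a population 1 array stood against 1, so there is no replicate check. In P4, 2 of the 80 genes were at least 2-fold higher in het, Rpl14 by 1.62 and Rpl21 by 1.21, and none was 2-fold lower, where 5.89% of all genes were 2-fold apart and 5.77% were higher in het by that much. Rpl29 followed with 0.94 on its brightest probe, and the lowest were Rps25 (-0.15), Rpl35a (-0.14) and Rps24 (-0.13). The next brightest probes of Rps25 and Rps24 gave 0.06 and 0.75. On that of Rpl35a het P4 (0.20) was still below WT P4 (0.38). In P5 none of the 80 reached 2-fold, against 3.04% of all genes (2.48% higher in het). The highest there were Rps14 with 0.72, Rpl14 with 0.68 and Rpsa with 0.51, and the lowest Rpl27 with -0.51, Rps15 with -0.43 and Rps28 with -0.41. In MEC none reached 2-fold, against 2.67% of all genes (1.98% higher in het). Among the highest were Rpl21 with 0.94 and Rps21 with 0.45, and the lowest were Rpl14 with -0.60, Rpsa with -0.42 and Rpl31 with -0.39. The spread of a spot, from 245 probes printed 10 times per array, was 0.10, which gives 0.14 for a difference of 2 arrays. It covers printing and hybridization within an array and not the spread between mice.

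Rpl21 shows that a symbol can hide unlike probes. Its brighter probe, used here, had levels of 1.39 in het P4, 0.18 in WT P4, 0.79 in het P5, 0.53 in WT P5, -0.10 in het MEC and -1.04 in WT MEC. Its dimmer probe had 0.02 in het P4, 0.16 in WT P4, 0.34 in het P5, 0.25 in WT P5, 0.82 in het MEC and 1.01 in WT MEC. The brighter one is highest in het P4 and the dimmer one in WT MEC, with P4 minus MEC differences of 1.36 and -0.83. The brighter probe is 75% G and C, the highest of the 134 probes of the family, and the dimmer one 41.7%. Its accession had no match in the RefSeq table. The second probe of Rps4x, 61.7% G and C, gave 2.26 in het P4, 0.23 in WT P4, 1.59 in het P5, 0.31 in WT P5, -0.15 in het MEC and -0.93 in WT MEC. The Rps4x probe used for the gene lay between 0.32 and 0.63. The first 30 bases of both Rpl21 probes show the difference in composition.
Rpl21 brighter probe: ggcagccctcgggccttgtaagagcgcgca
Rpl21 dimmer probe: gagggttctctagaagtactacctgtctta

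Among the 40 genes with more than 1 probe, the 2 brightest probes had the same sign for 31 genes in P4 against P5, 25 in P4 against MEC, 24 in P5 against MEC and 14 in het against WT. The median absolute gap between them was 0.14, 0.26, 0.20 and 0.13 in that order. Ribosomal protein genes also have many processed pseudogenes. The array holds 39 probes described as similar to a cytosolic ribosomal protein, and the probes of 5 members (Rpl5, Rpl6, Rpl15, Rpl17 and Rpl18) share 25 or more bases in a row with a probe of another name, so signal of near-identical copies cannot be separated there.

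Of the 80 genes, 60 had a promoter in the RefSeq table (GRCm38.p6, 250 bases before to 50 after a start). CTTTC on the sense strand within 50 bases of the start was found for 31 of them (51.7%), against 14.6% of 27025 genes. CCGGAAG, an ETS-type motif, on either strand of the 300 bases was found for 24 (40%), against 9.9%, and AAGATGG on either strand for 10 (16.7%), against 7.3%. TATAAA on the sense strand, from 50 to 10 bases before the start, was found for 1 (1.7%), against 2.9%. These letters describe the sequence and are not binding sites. The promoters of Rpl11 (minus strand, chr4:136053374-136053493) and Rpl5 (plus strand, chr5:107900428-107900547) are shown for the Mdm2-binding pair that works with the 5S particle. Capitals mark CTTTC and, in Rpl11, CCGGAAG just before the end. The CTTTC marked in Rpl11 lies more than 50 bases before the start, outside the window counted.
Rpl11 promoter: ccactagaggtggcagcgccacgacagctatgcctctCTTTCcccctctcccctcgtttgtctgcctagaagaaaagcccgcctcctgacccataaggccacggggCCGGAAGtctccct
Rpl5 promoter: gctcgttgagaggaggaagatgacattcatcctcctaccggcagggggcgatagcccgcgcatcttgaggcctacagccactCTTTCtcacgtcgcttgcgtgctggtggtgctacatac

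Genes that build ribosomes are given beside the genes of the ribosome itself, between P4 and P5 first. Of 41 ribosome biogenesis and RNA polymerase I genes, 14 rose in P4 and 0 fell, with a median difference of 0.74, where 4.88% of all genes rose. Nop58, a core protein of the box C/D complexes that methylate ribosomal RNA, had levels of 1.73 in het P4 and 1.72 in WT P4, against 0.36 in het P5 and 0.11 in WT P5. It rose by 1.49 (SE 0.18, limma adjusted p = 0.0192). Rrs1, which brings the 5S particle with Rpl5 and Rpl11 into the large subunit (in yeast), rose by 1.38 (SE 0.11, limma adjusted p = 0.0102), and Nip7, a factor of large-subunit maturation, by 1.38 (SE 0.20, limma adjusted p = 0.0281). The 80 ribosomal protein genes had a median of -0.14 in the same fit, and none of them rose. The difference between the lists was not tested. With median centring 1 biogenesis gene passed, where 3.52% of all genes did. Without 1 of the 4 sorted arrays P4 or P5 holds 1 array, so the calls could not be checked that way.

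Mitochondrial ribosomal proteins are encoded in the nucleus and serve the ribosome inside mitochondria. Of 78, 14 fell in P4 and 0 rose relative to P5, with a median of -0.21, where 5.43% of all genes fell. Mrpl14 fell by 1.49 (SE 0.16, limma adjusted p = 0.0154), Mrpl40 by 1.14 (limma adjusted p = 0.0283) and Mrps33 by 1.13 (limma adjusted p = 0.0166). With median centring 0 passed, where 3.52% of all genes did. These calls too could not be checked with 1 sorted array left out. In the 3 remaining lists 1 gene each passed, 5.26%, 10% and 6.25% of the list, against 10.3% of all genes. Of 19 translation factors and other TOP genes it was Tpt1, which rose by 0.69 (limma adjusted p = 0.047), and the median was -0.16. Among 10 S6 kinase genes Rps6ka3 rose by 0.74 (limma adjusted p = 0.0393), and among 16 Myc and mTOR regulators Tsc1, an inhibitor of mTOR signalling, fell by 0.59 (limma adjusted p = 0.0476). Myc itself had levels of 1.14 in het P4 and 1.26 in WT P4, against 0.82 in het P5 and 0.72 in WT P5, a difference of 0.43 (limma adjusted p = 0.12). Fau, a ribosomal protein gene made as a ubiquitin-like fusion that the symbol rule does not take, differed by -0.22 and did not pass.

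**Figure D4:**
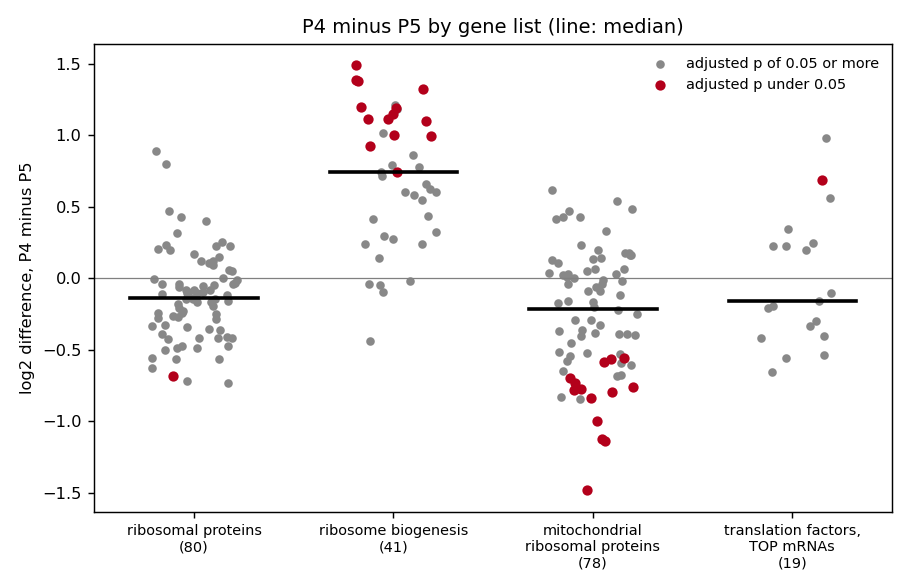
Difference P4 minus P5 (log2) of the genes of 4 lists, 1 point per gene with the median as a black line and genes under an adjusted p of 0.05 in red. The medians are -0.14 for ribosomal proteins, 0.74 for ribosome biogenesis, -0.21 for mitochondrial ribosomal proteins and -0.16 for translation factors and TOP genes.

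Against MEC, 3 biogenesis genes rose in P4 (Nop58 by 1.14, Nop56 by 0.93 and Rrs1 by 0.74) and 0 fell, where 2.66% of all genes rose. In P5, 2 fell (Nop14 by 1.16 and Nolc1 by 0.97) and 0 rose, where 3.06% of all genes fell. Of the 78 mitochondrial ribosomal proteins 8 fell in P4 and 1, Mrps17, rose relative to MEC, where 4.03% of all genes fell. Mrps17 had levels of 4.92 in het P4, 2.30 in WT P4, 4.02 in het P5 and 1.97 in WT P5, against -0.60 in het MEC and -0.41 in WT MEC, so the het arrays stood far above the WT arrays in both sorted populations. Of the 19 translation factors and other TOP genes 2 passed, Eif3k and Eif4b, which fell in P4 by 0.75 and 0.65. Of the 16 Myc and mTOR regulators 1 passed, Max, the partner of Myc, which rose by 0.81, where 6.69% of all genes passed.

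The position of the whole family depended on how the 2 channels of an array were brought to one scale. The median unnormalized Cy5 signal of the 80 genes was 23231 in het P4, 40583 in WT P4, 44010 in het P5, 74290 in WT P5, 90160 in het MEC and 139725 in WT MEC. The Cy3 signal of the same spots was 170466, 160890, 146382, 142729, 59855 and 53412 in that order. The family's raw Cy5 signal was thus lower in het than in WT in all 3 populations, and lower in P4 than in P5 in both genotypes. Over all probes the median Cy5 signal was 112, 120, 112, 156, 168 and 182 in the same order. The median Cy3 signal over all probes was 282, 278, 245, 280, 114 and 115. The all-probe Cy5 median was thus also lower in het than in WT in all 3 populations, and lower in WT P4 than in WT P5. It was nearly equal in het P4 and het P5. Loess, which fits the ratio as a curve of brightness, takes up the difference between the channels for bright spots. With each array centred on its median in place of loess, the family's median was -1.15 for het against WT (76 of 80 genes fell), -1.56 for P4 against MEC (73 fell) and -1.30 for P5 against MEC (73 fell), with all-gene medians of -0.20, -0.22 and -0.33. In the same fits 28.4%, 26.4% and 30.9% of all genes fell. P4 against P5 was less affected, at -0.27, with 0 genes passing, where 3.52% of all genes did. Loess fitted with the ribosomal protein probes at weight 0 kept the medians near those above, at 0.09, -0.03, 0.16 and -0.19 in that order of comparisons. The direction of the family's median relative to MEC and to WT thus depended on the normalization. Rpl35a and Rps14 turned with it, to P4 minus MEC differences of -0.69 and -0.78 under median centring, which did not pass. Rps26, already negative under loess, could not turn under a shift of the family to -1.56, and was at -2.12. With each array centred on the family's median without loess, the P4 minus MEC differences were 0.86 for Rpl35a, 0.77 for Rps14 and -0.56 for Rps26.

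**Figure D5:**
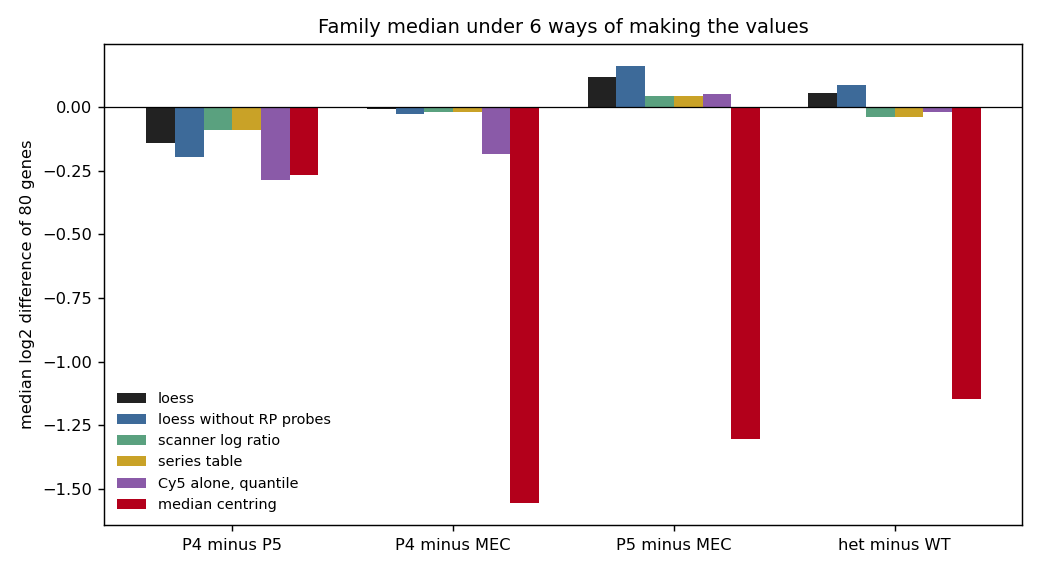
Median difference (log2) of the 80 genes in the 4 fitted comparisons under 6 ways of making the values, as bars from 0. Under median centring the family is lower in P4 and P5 than in MEC and lower in het than in WT, by 1.15 to 1.56, and under the other 5 the medians stay between -0.29 and 0.16.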

How the data were processed

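Values came from 6 2-colour Agilent whole mouse genome arrays. Per the file headers, the authors read them with Agilent Feature Extraction 9.5.3.1, and raw intensity is deposited as the mean signal and median local background of each spot. They also hold the deposited log10 ratio of the scanner software, after its own background and dye correction. The deposited series table holds log2 ratios, which followed the scanner's (r of 0.988 to 0.999 over 41156 probes) with Cy5 over Cy3 as direction. Each array had 45018 spots, 1639 of them controls, and 74.3% to 89.8% of spots were well above background in Cy5.

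With R 4.3.3 and limma 3.58.1, signals were background-corrected (normexp, offset of 50) and normalized by loess within each array, leaving out control spots and outlier flags. Spots of a probe were averaged, probes were kept if 2 or more arrays had them well above background in Cy5, and the brightest probe stood for a gene. The limma fit held population and genotype (1 array per group, 2 residual degrees of freedom), with calls at a Benjamini-Hochberg adjusted p below 0.05, and was tested on simulated data. Its spread is between these arrays only. Het against WT within a population was 1 array against 1, with no test and a count of genes 2-fold apart. The members and lists were chosen with earlier results of these data known. Named members are the 4 highest and 4 lowest estimates of each fitted comparison, the 3 highest and 3 lowest of each 1-against-1 comparison, paralogs with their namesakes, Rpl5, Rpl11, Rpl23, Rplp0, Rplp1, Rplp2, Rpsa and Rps27a, and the extremes in signal and SD. From each list up to 3 called genes were named. A few genes that these rules pick are not reported here. Rpl39, Rpl6, Rpl10a, Rpl15, Rpl17, Rpl18, Rpl23a, Rpl35, Rpl37a and Rps4x fall outside these rules and were named after their values were seen. Precision is limited by the number of arrays.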

Additional observations from a re-analysis of the deposited data

Results flagged for a closer look

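The het minus WT difference of Rpl14 had opposite signs between populations. It was 1.62 in P4 and 0.678 in P5, against -0.597 in MEC, each from 1 array against 1. Rpsa did likewise, with 0.548 in P4 and 0.508 in P5, against -0.423 in MEC. They are given here because the 2 sorted populations and MEC had opposite signs. The difference between populations was not tested, since each rests on a single pair of arrays. The spread between mice is not known for any of these values. With median centring the P4 and P5 values of Rpl14 were -0.020 and -0.195, with -1.35 in MEC, and those of Rpsa -1.10 and -0.366, with -1.27 in MEC, so the signs no longer differed. On the next brightest probe of Rpsa the differences were -0.241 in P4, 0.0054 in P5 and -0.372 in MEC. The WT P4 array had local Cy3 backgrounds of up to 30168 units, and with outlier backgrounds replaced the P4 values were 1.51 for Rpl14 and 0.450 for Rpsa. The 4 fibroblast markers had median het minus WT differences of 0.35 in P4 and 0.88 in P5, against -0.96 in MEC, and their part was not tested.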

How the results depend on the processing

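Of 220 recomputed counts and medians of the family, 149 stayed close to the reported value, a count within 1.5 times of it or a median within 0.14. The number of called genes stayed close in 3 of 19 settings for P4 against P5, 4 of 18 for P4 against MEC and 7 of 18 for P5 against MEC. Some settings could not move a value, such as leaving out a P5 array for the P4 against MEC median. The scanner software's ratios and the series table hold nearly the same values. Median centring in place of loess moved the most: the medians became -1.56 (P4 against MEC), -1.30 (P5 against MEC), -1.15 (het against WT), -1.61 (het against WT in P4), -0.89 (in P5) and -0.97 (in MEC), with 73, 73, 76, 76, 17 and 37 genes counted, all lower, and 0 for P4 against P5. It reversed Rpl35a (-0.69 in P4 and -0.59 in P5 against MEC), Rps14 (-0.78 in P4 against MEC), Rpl29 (-0.70 for het against WT, past the threshold) and, for het against WT in P4, Rpl14 (-0.020) and Rpl21 (-0.35). It changed the sign of 14 further values of single genes, none of them past a threshold, among them Rpl11 (-0.67) and Rpl5 (-0.72) in P5 against MEC and Rpl29 (-0.72) for het against WT in P4. With the next brightest probe Rpl21 reversed to -0.83 in P4 against MEC and -0.14 for het against WT in P4, with -0.62 in P5 against MEC and -0.19 for het against WT in MEC, and 5, 2 and 0 genes passed in P4 against MEC, P4 against P5 and P5 against MEC, with 2 genes 2-fold apart in MEC and 1 in P5.

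Cy5 alone gave medians of -0.18 (P4 against MEC), -0.29 (P4 against P5) and -0.18 (het against WT in MEC), with 12 and 9 genes passing in the first 2 comparisons, all lower, and 1 gene 2-fold apart in P4 and 1 in MEC. The scanner software's ratios and the series table gave 1 called gene in P4 against MEC and 0 in P4 against P5, 1 gene 2-fold apart in MEC and a median of -0.055 for het against WT in P4. An offset of 0 gave 0, 1 and 0 called genes in P4 against P5, P4 against MEC and P5 against MEC. Replaced outlier backgrounds gave 9 in P4 against MEC and 5 in P5 against MEC, loess without the ribosomal protein probes 2 in P5 against MEC, the mean over probes 2 in P4 against P5, and the P4 and P5 arrays alone 7. Centring each array on the family's own median, chosen after seeing the data, gave for P4 against P5 a median of 0.0090 and 0 genes after loess, and 0.012 and 2 genes without it. In P4, het against WT then had medians of -0.12 and -0.14, with 1 gene 2-fold apart after loess. Without loess 12, 6 and 3 genes passed in P4 against MEC, P5 against MEC (median -0.030) and het against WT, and 2 and 1 were 2-fold apart in MEC and P5.

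Leaving out 1 array gave family medians of -0.19 to -0.10 in P4 against P5 and -0.04 to 0.04 in P4 against MEC. They were 0.08 to 0.12 in P5 against MEC and 0.04 to 0.08 for het against WT. For P4 against P5, leaving out either MEC array is the fit of the 4 sorted arrays alone. With 1 array left out a population holds 1 array, so counts of genes passing are not given. The lone array of a group is then assumed to vary like the others. Over the alternatives the adjusted p of Rps26 in P4 against P5 ran from 0.0159 to 0.274 (called in 9 of 19), and in P4 against MEC from 0.00781 to 0.328 (7 of 18). That of Rpl35a ran from 0.00288 to 0.271 in P4 (5 of 18) and from 0.0209 to 0.269 in P5 (4 of 18), and that of Rps14 from 0.00778 to 0.328 (8 of 18). Rps26 and Rps14 have a single probe, so the settings that change the probe repeat their main estimates. For P4 against P5, the fit of the sorted arrays alone and the fits without a MEC array are the same fit. The causes were not tested. Populations were compared within genotype by the fit, and no group had a replicate array. With 2 residual degrees of freedom, differences of 2-fold or less in single members were often not detectable. In the simulated data for P4 against P5, 67 of 200 genes (33.5%) with a log2 change of 1 were recovered. With a log2 change of 2, 195 of 200 (97.5%) were. These 200 were the only genes changed among 25590 in each simulation, while 10.3% of all genes passed in the data. The Benjamini-Hochberg adjustment depends on that share, so recovery in the data may differ.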
